A study of Homo sapiens with 12 samples.

Results

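The 48 genes described here are the machinery of the G1/S transition and of DNA replication, chosen by gene symbol, and all 48 were found among the 58735 genes of the expression table. They were measured by bulk RNA sequencing in KYSE180 and KYSE150, established cell lines of human oesophageal squamous cell carcinoma. KYSE180 cells overexpressing CDCA7 were set against native KYSE180 cells of WT genotype, and KYSE150 cells carrying a short hairpin RNA against CDCA7 (shCDCA7) were set against native KYSE150 cells of WT genotype, with 3 libraries in each of the 4 groups. All cells grew in the same serum-containing medium. The labels name no empty-vector or non-targeting hairpin control, and they do not say whether the engineered cells are clones or whether replicates are separate cultures. The p-values below therefore measure the spread between these libraries, which may be technical.

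DNA replication is prepared in G1, when the origin recognition complex, CDC6 and CDT1 load the MCM helicase on chromatin. Cyclin E and its kinase, acting through the RB protein, release E2F transcription factors, which switch on most of the genes described here. In S phase CDC45 and the GINS complex activate the helicase, primase and polymerases copy DNA on a sliding clamp, and chromatin assembly factors place histones on the new strands. These genes are most highly transcribed around the G1/S boundary. In bulk RNA, fewer cells in that stage and less RNA per cell cannot be told apart. CDCA7 itself is an E2F- and MYC-responsive nuclear protein and a partner of the remodelling enzyme HELLS.

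CDCA7 followed its labels in every library. In FPKM, fragments per kilobase of gene scaled to library size, it reached 44.6, 59.1 and 57.9 in the KYSE180 CDCA7 libraries, against 24.0, 18.2 and 17.4 in the KYSE180 controls. In KYSE150 it reached 9.24, 10.1 and 8.83 with shCDCA7, against 27.4, 25.6 and 25.6 in controls. The groups did not overlap in either line. The log2 difference was 1.40 in KYSE180 (SE 0.17, adjusted p = 0.00947) and -1.39 in KYSE150 (SE 0.09, adjusted p = 0.00166). Here and below, log2 differences are of FPKM + 1, which understates the change of genes near 1 FPKM, and calls rest on limma-trend, two-sided, with p-values adjusted by Benjamini-Hochberg over all genes tested and a threshold of 0.05.

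The libraries held between 16.3 M and 19.6 M reads. The squamous markers KRT5, TP63 and DSG3 were above 10 FPKM in every library, and KRT6A was at 6.84 FPKM or more. Of 15 markers of fibroblasts, leukocytes and endothelium the highest single value was 5.39 FPKM (COL1A1), the next 1.28 FPKM (VWF), and MS4A1 was at 0 throughout. Reads from mitochondrial DNA made up 7.97% to 8.65% of the KYSE180 CDCA7 libraries, against 4.76% to 6.38% of the KYSE180 controls. In the shCDCA7 libraries of KYSE150 they made up 5.20%, 11.2% and 5.73%, against 4.03% to 4.15% in the KYSE150 controls. Of the libraries, shCDCA7 replicate 2 stood apart across all genes, and KYSE180 control replicate 3 stood apart in the replication and mitosis genes. Across all genes, shCDCA7 replicate 2 correlated with replicates 1 and 3 at r = 0.952 and 0.955, whereas replicates 1 and 3 correlated at 0.995. Across all genes KYSE180 controls 1 and 3 correlated at 0.982, controls 1 and 2 at 0.975 and controls 2 and 3 at 0.965. On that measure control 2, not control 3, was in both of the lower pairs.

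With the hairpin against CDCA7 in KYSE150, 17 of the 48 replication genes fell and 0 rose. The 17 genes are 35.4% of the 48, and 31 did not pass, whereas 9.86% of the 14342 genes tested were called lower and 10% higher (19.9% called in all). The log2 difference was negative for 40 of the 48 and its median was -0.41, beside a median of 0.00 over all genes tested. The shCDCA7 libraries lay below every control for 30 genes and above every control for 4, while over all genes tested 22.5% lay below and 25.3% above. An unadjusted p under 0.05 was reached by 29 of the 48, beside 5268 of the 14342 genes tested, in either direction. Among positive differences 1, that of RPA2, had such a p. Limma-voom on the reads also called 0 of the 48 higher, beside 10.7% of all genes. The falls ranged between -0.41 for TK1 and -1.09 for E2F1. With total-read scaling 32 of the 48 were called lower, as were 21% of all genes, against 5.41% higher. That scaling moved the median of all genes to -0.16 and that of the 48 genes to -0.64.

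The shCDCA7 replicate 2 library decided how many of the 48 genes passed. It gave the highest of the 3 shCDCA7 values for 35 of the 48 genes, beside 48.9% of all genes tested. Without it, 39 of the 48 genes were called lower and 2 higher, beside 26.4% and 29.5% of all genes, and all 17 genes called with it were among the 39. The median difference was then -0.46. The excess of this library over the other two shCDCA7 libraries correlated with gene GC content at r = -0.47 over the 48 genes and at -0.547 over all genes tested. Leaving out controls 1, 2 or 3 in turn left 2, 2 and 3 of the 48 genes called lower, beside 1.95%, 1.49% and 2.36% of all genes. Leaving out shCDCA7 replicate 1 or 3 left 8 of the 48 each time, beside 6.21% and 5.58% of all genes.

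With CDCA7 overexpression in KYSE180 most replication genes also had negative differences, but 1 of the 48 passed the test. CCNE2 fell, 0 rose and 47 did not pass, beside 4.43% of the 15944 genes tested called lower and 4.65% higher (9.08% called in all). The share of the 48 genes called lower, 2.08%, was thus below that of all genes. The differences were negative for 40 of the 48, with a median of -0.28 beside 0.00 over all genes. An unadjusted p under 0.05 was reached by 16 of the 48, all negative, beside 4777 of the 15944 genes tested, in either direction. With limma-voom on the reads, 5 of the 48 were called lower and 0 higher, beside 5.56% and 5.93% of all genes. The CDCA7 libraries lay below every control for 11 genes and above every control for 0, while over all genes 17.4% lay below and 17.7% above. With total-read scaling 8 of the 48 genes were called lower, beside 7.7% of all genes called lower and 3.16% higher. The median of the 48 was then -0.39 and that of all genes -0.08.

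KYSE180 control replicate 3 decided this count. It was the lowest of the 3 controls for 48 of 48 genes, beside 35.7% of all genes tested. Relative to the mean of the KYSE180 controls, the median of the 48 genes was -0.29, -0.28 and -0.27 in CDCA7 libraries 1, 2 and 3, against 0.17, 0.20 and -0.37 in controls 1, 2 and 3. Control 3 thus lay below all 3 CDCA7 libraries on this measure. Without it, 20 of the 48 genes were called lower and 0 higher, beside 7.08% and 7.93% of all genes tested, with a median of -0.44. Whether control 3 or the other controls better represent native KYSE180 cells was not tested.

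**Figure D1:**
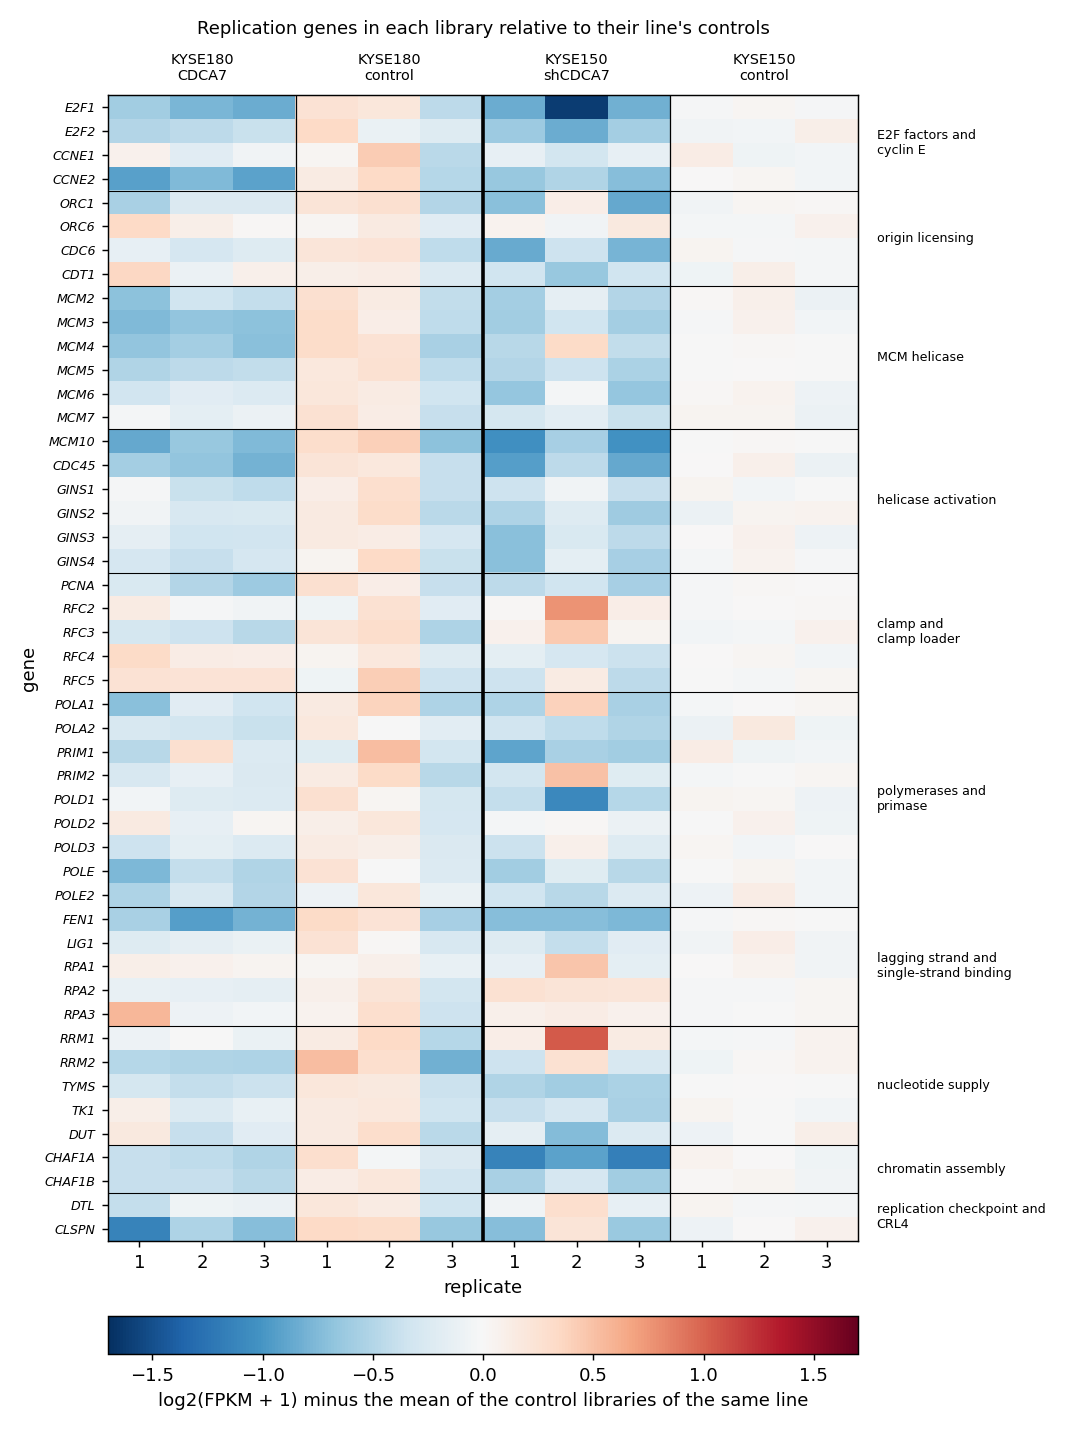
Each of the 48 genes (rows, grouped by role) in each of the 12 libraries (columns), as log2(FPKM + 1) minus the mean of the 3 control libraries of the same line, with blue below and red above that mean. The KYSE150 shCDCA7 columns are mostly blue, replicate 2 less evenly so, and the KYSE180 control replicate 3 column is blue like the CDCA7 columns of the same line.

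Among the E2F factors and E-type cyclins, 3 of 4 fell in KYSE150 and 1 of 4 in KYSE180, beside 9.86% and 4.43% of all genes. E2F1, the activator E2F that drives S phase entry, had 15.7, 13.6 and 13.01 FPKM in the KYSE180 CDCA7 libraries, against 28.9, 27.7 and 17.6 in controls. In KYSE150 it had 14.2, 7.94 and 14.6 FPKM with shCDCA7, against 26.0, 26.9 and 26.0 in controls. The groups did not overlap in either line. The fall in KYSE150 was -1.09 (SE 0.22, adjusted p = 0.0199), the largest of the 48 genes, and shCDCA7 replicate 2 was its lowest library. Without that replicate the fall was -0.83, after those of CHAF1A (-1.14), MCM10 (-1.04) and CDC45 (-0.90). The difference in KYSE180 was -0.74 (SE 0.19) and missed the threshold (adjusted p = 0.0529).

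E2F2, a second activator E2F, had 1.34, 1.004 and 1.42 FPKM with shCDCA7, against 2.46, 2.498 and 2.87 FPKM in KYSE150 controls. The groups were apart and the fall was -0.68 (SE 0.11, adjusted p = 0.0112). KYSE180 CDCA7 libraries had 5.01 to 5.55 FPKM of E2F2, against 6.28 to 9.74 FPKM in controls, a difference of -0.44 that did not pass (adjusted p = 0.126).

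CCNE2, which encodes cyclin E2, was the single gene of the 48 called in both lines. It had 0.97, 1.23 and 0.9999 FPKM in the KYSE180 CDCA7 libraries, against 3.12, 3.73 and 1.68 FPKM in controls, with control 3 nearest to the CDCA7 libraries. In KYSE150 it had 0.892, 1.08 and 0.789 FPKM with shCDCA7, against 1.98, 2.02 and 1.86 FPKM in controls. Both constructs thus went with CCNE2 below every control of the line. The falls were -0.86 in KYSE180 (SE 0.21, adjusted p = 0.0444) and -0.62 in KYSE150 (SE 0.09, adjusted p = 0.00818). In KYSE180 the call was lost when any library other than control 3 was left out, where 0% to 7.25% of all genes were called lower. INTS8 on the opposite strand overlaps 37% of the exon bases of CCNE2, and whether the counting used strand is not known. CCNE1, encoding cyclin E1, gave -0.06 in KYSE180 and -0.20 in KYSE150, with neither passing (adjusted p = 0.888 and 0.229).

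**Figure D2:**
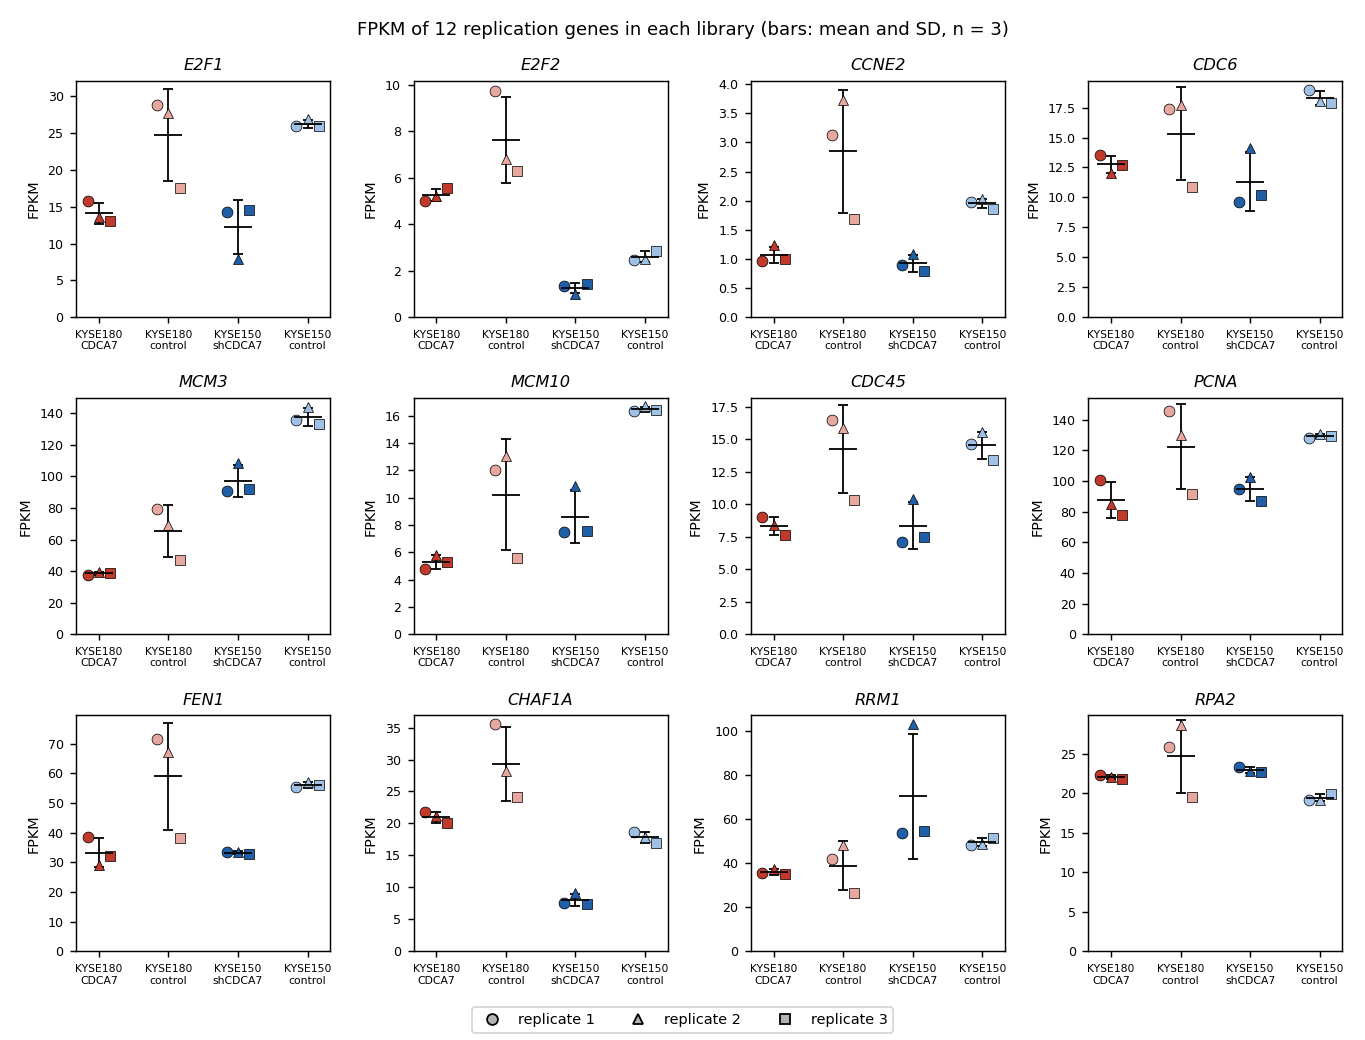
FPKM (vertical axes, from 0) of 12 of the genes in every library, with the group mean and SD over 3 libraries as bars and the replicate number as the symbol. In KYSE150 all 12 genes separate fully by group, with shCDCA7 above the controls for RRM1 and RPA2 and below them for the others. The KYSE180 controls spread widely, with replicate 3 the lowest of them in each panel.

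The promoters of the genes that fell most in KYSE150 and of the 2 with the largest positive differences there are shown to let their sequences be compared, since these genes moved together or apart. Each runs from 120 bases before to 30 bases after the RefSeq start (GRCh38.p14), 5′ to 3′ on the strand of the gene. Capitals mark matches, on either strand, to the E2F words TTTCCCGC, TTTCGCGC, TTTGCCGC and TTTGGCGC or to the shorter word TTTGGCG, which lies within TTTGGCGC. TTTGGCG was added after the sequences had been seen. The largest falls in KYSE150 among genes with a promoter in the RefSeq table were those of E2F1, CHAF1A, MCM10 and CDC45.
E2F1 (chr20:33686356-33686505, minus strand): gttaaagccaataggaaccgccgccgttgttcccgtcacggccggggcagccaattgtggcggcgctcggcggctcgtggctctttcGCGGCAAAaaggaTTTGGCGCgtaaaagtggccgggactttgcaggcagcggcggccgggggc
CHAF1A (chr19:4402520-4402669, plus strand): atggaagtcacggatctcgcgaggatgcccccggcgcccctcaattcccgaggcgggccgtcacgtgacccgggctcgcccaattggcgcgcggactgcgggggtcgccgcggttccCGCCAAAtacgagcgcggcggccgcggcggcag
MCM10 (chr10:13161438-13161587, plus strand): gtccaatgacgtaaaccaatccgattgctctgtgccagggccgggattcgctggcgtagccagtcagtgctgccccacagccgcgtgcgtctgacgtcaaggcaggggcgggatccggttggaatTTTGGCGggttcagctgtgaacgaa
CDC45 (chr22:19479800-19479949, plus strand): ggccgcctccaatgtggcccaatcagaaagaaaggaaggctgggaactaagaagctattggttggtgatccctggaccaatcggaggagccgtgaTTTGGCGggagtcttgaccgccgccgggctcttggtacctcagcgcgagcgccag

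All 4 windows hold a TTTGGCG or its reverse complement CGCCAAA, but that word was added after they had been seen, so the count is no independent description. Of the 4, E2F1 alone holds matches to the E2F words, GCGGCAAA and TTTGGCGC. CHAF1A, MCM10 and CDC45 have 0 such matches in the full 300 bases. The 2 genes with the largest positive differences, RRM1 and RFC2, have no match in these windows or in the full 300 bases. Of the other positive genes with a RefSeq promoter, RFC3 and DTL hold an E2F word, whereas RPA1 and ORC6 hold no match.
RRM1 (chr11:4094565-4094714, plus strand): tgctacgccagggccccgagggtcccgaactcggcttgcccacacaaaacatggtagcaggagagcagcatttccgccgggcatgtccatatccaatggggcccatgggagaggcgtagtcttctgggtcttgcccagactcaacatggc
RFC2 (chr7:74254370-74254519, minus strand): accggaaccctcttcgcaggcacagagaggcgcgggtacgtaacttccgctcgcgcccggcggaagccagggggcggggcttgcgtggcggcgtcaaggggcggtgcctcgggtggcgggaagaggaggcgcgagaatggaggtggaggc

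MCM6 holds the most matches, 4 to the E2F words over its 300 bases, and was picked for this after the scan. The words overlap in TTTGGCGCGAAA.
MCM6 (chr2:135876414-135876563, minus strand): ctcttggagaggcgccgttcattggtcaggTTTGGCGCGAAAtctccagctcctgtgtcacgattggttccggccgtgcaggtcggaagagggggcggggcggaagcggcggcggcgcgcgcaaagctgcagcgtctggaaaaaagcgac

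Over the 300-base promoters (250 before to 50 after the start), 41 of the 48 genes matched the RefSeq table. An E2F word occurred in 21 of the 41 (51.2%), beside 5.39% of the 9826 matched genes tested in KYSE150 and 3.33% of all 27305 promoters. The word occurred in 8 of 15 genes called lower in KYSE150 (53.3%) and in 13 of 26 not called (50%). TTTGGCG occurred in 14 of the 41 (34.1%), beside 3.05% of the matched genes tested. Since the word was added after sequences of these genes had been seen, its share is no independent description. CCAAT or its reverse complement ATTGG occurred in 23 of the 41 (56.1%), beside 36.7% of the matched genes tested. The cell cycle homology words TTTGAA and TTCGAA, typical of mitosis genes, occurred in 2 of the 41 (4.88%), beside 10.9% of the matched genes tested and 24 of 32 promoters (75%) of a list of mitosis genes. A match is a run of letters and was not tested for binding.

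Of the 4 origin licensing genes, CDC6 and CDT1 fell in KYSE150 and none of the 4 passed in KYSE180. CDC6, which loads the helicase at origins, had 9.60, 14.1 and 10.2 FPKM with shCDCA7, against 19.0, 18.1 and 17.8 FPKM in KYSE150 controls. All shCDCA7 values were below all controls, with replicate 2 the nearest (-0.67, SE 0.15, adjusted p = 0.0267). In KYSE180 its difference was -0.22 (adjusted p = 0.471), with control 3 below every CDCA7 library. CDT1, its partner in loading and the most abundant of the 4 in both lines, averaged 23.8 ± 2.93 FPKM with shCDCA7 and 32.6 ± 1.99 FPKM in KYSE150 controls (SD, n = 3 each), a fall of -0.44 (SE 0.12, adjusted p = 0.0414). In KYSE180 it averaged 52.3 ± 8.40 FPKM with CDCA7 and 48.1 ± 6.45 FPKM in controls, a difference of 0.12 that did not pass (adjusted p = 0.664) and was -0.01 with total-read scaling. ORC6, a subunit of the origin recognition complex, had 17.6, 14.7 and 13.9 FPKM with CDCA7, against 14.1, 15.4 and 11.9 FPKM in KYSE180 controls. At 0.15 this was among the 3 largest positive differences in KYSE180, and its groups overlapped (adjusted p = 0.516). ORC1, the subunit made in G1, gave -0.34 in KYSE180 and -0.49 in KYSE150, neither passing, and its shCDCA7 replicate 2 value of 13.4 FPKM exceeded every control. Without that replicate ORC1 was at -0.79 (adjusted p = 0.000121).

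The 6 subunits of the MCM helicase ring were negative in both lines, from -0.10 to -0.71 in KYSE180 and from -0.19 to -0.50 in KYSE150. MCM3 and MCM5 fell in KYSE150, and none of the 6 passed in KYSE180. MCM3 had 37.5, 39.6 and 38.9 FPKM in the KYSE180 CDCA7 libraries, against 79.3, 69.4 and 47.2 FPKM in controls. In KYSE150 it had 90.7, 109 and 92.0 FPKM with shCDCA7, against 136, 144 and 133 FPKM in controls. The groups did not overlap in either line. The fall in KYSE150 was -0.50 (SE 0.10, adjusted p = 0.0207), and the larger difference in KYSE180, -0.71 (SE 0.19), missed the threshold (adjusted p = 0.0544). MCM5 averaged 16.2 ± 1.14 FPKM with shCDCA7 and 22.6 ± 0.151 FPKM in KYSE150 controls (SD, n = 3 each), a fall of -0.46 (adjusted p = 0.0165). MCM7, the most abundant subunit in KYSE180, averaged 147 ± 6.85 FPKM with CDCA7 and 161 ± 35.8 FPKM in controls there (-0.10, adjusted p = 0.751). MCM2, MCM4 and MCM6 gave -0.48, -0.65 and -0.25 in KYSE180 and -0.41, -0.19 and -0.45 in KYSE150, none passing. The shCDCA7 replicate 2 value of MCM4, 86.0 FPKM, exceeded every control. Without shCDCA7 replicate 2, 6 of 6 subunits were called lower in KYSE150, beside 26.4% of all genes. Without control 3, 5 of 6 were called lower in KYSE180, beside 7.08% of all genes.

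The proteins that turn the loaded helicase on were also negative throughout, in 6 of 6 genes in each line. MCM10 and CDC45 fell in KYSE150. MCM10 had 7.46, 10.8 and 7.53 FPKM with shCDCA7, against 16.3, 16.7 and 16.4 FPKM in controls. The controls lay within a narrow range and every shCDCA7 library was below it (-0.88, SE 0.15, adjusted p = 0.0119). In KYSE180 MCM10 had 4.80, 5.81 and 5.30 FPKM with CDCA7, against 12.05, 13.1 and 5.56 FPKM in controls. Control 3 lay among the CDCA7 libraries, and the difference of -0.76 did not pass (adjusted p = 0.115).

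CDC45, which joins MCM and GINS in the active helicase, had 9.04, 8.39 and 7.61 FPKM in the KYSE180 CDCA7 libraries, against 16.5, 15.9 and 10.4 FPKM in controls. With shCDCA7 it had 7.11, 10.4 and 7.49 FPKM, against 14.6, 15.5 and 13.4 FPKM in KYSE150 controls. It was lower than every control in both lines. The fall in KYSE150 was -0.75 (SE 0.15, adjusted p = 0.0206), and the difference in KYSE180 was -0.68 (SE 0.18, adjusted p = 0.0547). GINS1, GINS2, GINS3 and GINS4, the subunits of the GINS complex, lay below every control in KYSE150, at -0.27 to -0.48, without passing. Over all genes tested there, 22.5% lay below every control. GINS2 was nearest to the threshold (adjusted p = 0.0525). All 6 genes of the group were called lower without shCDCA7 replicate 2, beside 26.4% of all genes.

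Of the sliding clamp and its loader, the clamp fell in KYSE150. PCNA, the clamp itself and the most abundant of these 5 genes, averaged 94.9 ± 7.82 FPKM with shCDCA7 and 129 ± 1.44 FPKM in KYSE150 controls (SD, n = 3 each), a fall of -0.45 (SE 0.09, adjusted p = 0.0212). In KYSE180 it averaged 87.9 ± 11.7 FPKM with CDCA7 and 122 ± 27.9 FPKM in controls (-0.46, adjusted p = 0.167). None of the 4 loader subunits passed in either line. RFC2 had 53.5, 90.0 and 57.1 FPKM with shCDCA7, against 51.8, 52.7 and 53.1 FPKM in KYSE150 controls. The positive difference of 0.30 (adjusted p = 0.312) came mostly from replicate 2, and without it was 0.07. RFC5 had 24.3, 24.3 and 24.1 FPKM with CDCA7, against 19.4, 27.7 and 15.8 FPKM in KYSE180 controls, whose range enclosed the CDCA7 values (0.24, adjusted p = 0.435). RFC4 had 68.4, 59.2 and 59.1 FPKM with CDCA7, against 56.3, 61.5 and 46.4 FPKM in KYSE180 controls (0.19, adjusted p = 0.407), and these groups overlapped too. RFC3 gave -0.37 in KYSE180 and 0.18 in KYSE150, neither passing, and its KYSE150 value was -0.07 with total-read scaling. In KYSE150 RFC4 was at -0.27 (adjusted p = 0.0738), with all shCDCA7 libraries below all controls.

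Of the 9 polymerase and primase genes, PRIM1 and POLA2 fell in KYSE150, all 9 were negative there, and none passed in KYSE180. PRIM1, the catalytic primase subunit, had 4.52, 5.97 and 5.79 FPKM with shCDCA7, against 10.2, 8.70 and 8.90 FPKM in controls. The groups were apart (-0.68, SE 0.13, adjusted p = 0.0172). In KYSE180 PRIM1 varied more within groups than between them, with 2.72 to 5.17 FPKM with CDCA7, against 3.12 to 6.36 FPKM in controls. POLA2, the second subunit of polymerase alpha, averaged 1.14 ± 0.134 FPKM with shCDCA7 and 1.88 ± 0.303 FPKM in KYSE150 controls (SD, n = 3 each), a fall of -0.42 (adjusted p = 0.0409). A same-strand gene, AP000944.2, overlaps 35.1% of its exon bases. POLE, the catalytic subunit of the leading-strand polymerase, lay below every control in both lines, at -0.56 in KYSE180 (adjusted p = 0.0729) and -0.42 in KYSE150 (adjusted p = 0.0658). POLD1, the catalytic subunit of polymerase delta, averaged 16.9 ± 4.32 FPKM with shCDCA7 and 26.8 ± 1.36 FPKM in KYSE150 controls, a difference of -0.66 that missed the threshold (adjusted p = 0.054). POLD2, an accessory subunit of that polymerase and the most abundant of the 9 in both lines, gave 0.01 in KYSE180 and -0.04 in KYSE150. Its sign turned negative in KYSE180 with total-read scaling (-0.11) and positive in KYSE150 after removal of the GC trend (0.13). POLA1, PRIM2 and POLD3 gave -0.23, -0.01 and -0.17 in KYSE150 and had their highest value of all 6 libraries in shCDCA7 replicate 2. Without that replicate 8 of the 9 genes were called lower in KYSE150, beside 26.4% of all genes.

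FEN1, the nuclease that trims Okazaki fragments, fell in KYSE150 and averaged 33.3 FPKM with either construct. It had 38.5, 29.2 and 32.2 FPKM in the KYSE180 CDCA7 libraries, against 71.4, 67.2 and 38.2 FPKM in controls. With shCDCA7 it had 33.5, 33.6 and 32.7 FPKM, against 55.3, 57.0 and 55.9 FPKM in KYSE150 controls. The KYSE150 groups were far apart relative to their spread (-0.73, SE 0.07, adjusted p = 0.00329). In KYSE180 control 3 fell among the CDCA7 values, and the similar difference of -0.76 (SE 0.24) did not pass (adjusted p = 0.0802). LIG1, the ligase that joins the fragments, gave -0.16 and -0.27 in KYSE180 and KYSE150, passing in neither. The 3 single-strand binding proteins had positive differences in KYSE150, which turned negative with total-read scaling, and none passed. RPA2 had 23.4, 22.8 and 22.7 FPKM with shCDCA7, against 19.2, 19.2 and 19.9 FPKM in KYSE150 controls. All shCDCA7 values lay above all controls, and the difference of 0.23 (SE 0.08) did not pass (adjusted p = 0.0831). It was called without shCDCA7 replicate 2 (0.23, adjusted p = 0.00308), and it was -0.03 with total-read scaling. RPA1 and RPA3, its partners, gave 0.07 and 0.14 in KYSE180 and 0.05 and 0.09 in KYSE150, and in KYSE150 -0.21 and -0.16 with total-read scaling. Without shCDCA7 replicate 2, RPA1 was at -0.16 and was called lower (adjusted p = 0.0231).

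Of the 5 genes of nucleotide supply, TYMS and TK1 fell in KYSE150 and none passed in KYSE180. TYMS, thymidylate synthase, had 14.7, 13.9 and 14.5 FPKM with shCDCA7, against 21.4, 21.5 and 21.4 FPKM in controls. These groups were tight and apart (-0.55, SE 0.08, adjusted p = 0.00769). ENOSF1 on the opposite strand overlaps 39.1% of the TYMS exon bases. TK1, the thymidine salvage kinase and the most abundant of the 5 in KYSE180, averaged 49.7 ± 4.81 FPKM with shCDCA7 and 66.3 ± 2.30 FPKM in KYSE150 controls (SD, n = 3 each), a fall of -0.41 (adjusted p = 0.0322). DUT, which removes dUTP, gave -0.14 in KYSE180 and -0.37 in KYSE150, neither passing. RRM1, the large subunit of ribonucleotide reductase, had 53.5, 103 and 54.5 FPKM with shCDCA7, against 48.3, 48.7 and 51.4 FPKM in KYSE150 controls. This was the largest positive difference of the 48 genes (0.43, SE 0.25, adjusted p = 0.266) and rested on replicate 2. Without that library it was 0.12 and was called higher (adjusted p = 0.0387). RRM2, the small subunit, which limits the enzyme in S phase, gave -0.12 in KYSE150 (adjusted p = 0.646), with replicate 2 at 25.0 FPKM above every control. In KYSE180 RRM2 had 13.3, 13.02 and 12.8 FPKM with CDCA7, against 27.7, 23.4 and 10.3 FPKM in controls (-0.51, adjusted p = 0.308), so that control 3 was the lowest of the 6 libraries.

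Both large subunits of chromatin assembly factor 1, which deposits histones behind the fork, fell in KYSE150. CHAF1A had 7.61, 9.06 and 7.42 FPKM with shCDCA7, against 18.6, 18.0 and 16.9 FPKM in controls. The groups were widely apart (-1.06, SE 0.11, adjusted p = 0.00324). CHAF1B had 6.88, 8.52 and 6.72 FPKM with shCDCA7, against 10.7, 10.97 and 10.1 FPKM in controls (-0.48, SE 0.12, adjusted p = 0.0342). In KYSE180 CHAF1A had 21.8, 21.1 and 20.01 FPKM with CDCA7, against 35.5, 28.2 and 24.1 FPKM in controls, without overlap and without passing (-0.44, adjusted p = 0.0965). CHAF1B likewise lay below every KYSE180 control (-0.42, adjusted p = 0.134). Of the remaining pair, CLSPN, the checkpoint adaptor claspin, had 2.88, 4.92 and 4.13 FPKM with CDCA7, against 9.69, 9.53 and 4.43 FPKM in KYSE180 controls. Its difference of -0.79 was the second largest there but did not pass (adjusted p = 0.113), control 3 again lying within the CDCA7 range. DTL, the substrate receptor that marks CDT1 for destruction in S phase, gave -0.20 in KYSE180 (adjusted p = 0.484) and 0.03 in KYSE150 (adjusted p = 0.883), the second turning to -0.21 with total-read scaling.

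**Figure D3:**
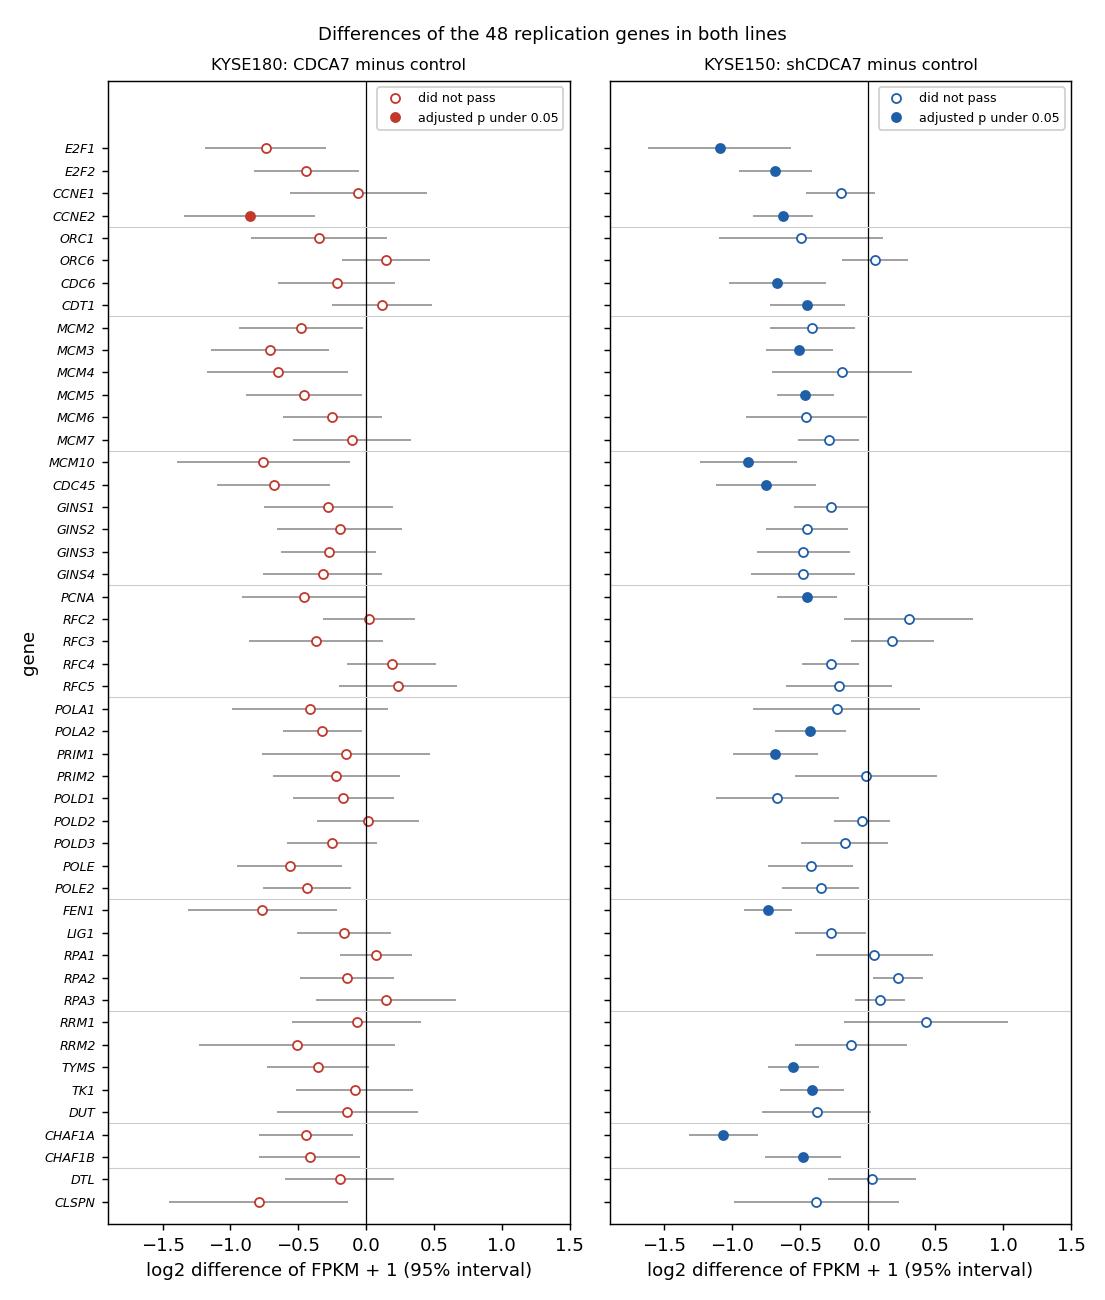
Log2 difference of FPKM + 1 with its 95% interval for each of the 48 genes in KYSE180 (left, CDCA7 minus control) and in KYSE150 (right, shCDCA7 minus control), with filled points for an adjusted p under 0.05. Filled points number 1 on the left and 17 on the right, and most points of both panels lie left of 0.

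The constructs move CDCA7 in opposite directions, so the design asks whether the replication genes did so as well. No library enters both comparisons. Of the 48 genes, 36 had a negative difference in both lines, 4 a positive one in both, 4 were negative in KYSE180 alone and 4 in KYSE150 alone. Across the 48 genes the differences in KYSE180 and KYSE150 correlated at Pearson r = 0.552 and Spearman rho = 0.554, given as a description because the genes are not independent. The difference of the effects, (KYSE180 CDCA7 minus control) minus (KYSE150 shCDCA7 minus control), passed for 0 of 48 genes, beside 2.87% of the 17088 genes tested called higher and 2.7% lower (5.57% in all), and for 0 with limma-voom on the reads. An unadjusted p under 0.05 was reached by 3 of the 48, beside 3797 of the 17088 genes tested. Without KYSE180 control 3 it was reached by 10 of the 48, and the share of all genes with such a p was not taken there. Calls over all genes also rose without that control, to 4.78% higher and 3.82% lower. The median difference of the 48 was 0.06 with 19 negative, and -0.11 with 32 negative without that control. CHAF1A had the largest of these differences, at 0.62 (95% interval 0.21 to 1.03, adjusted p = 0.0781), that is, a less negative value in KYSE180. CDT1 was at 0.56 (interval 0.11 to 1.004) and RFC4 at 0.46 (interval 0.10 to 0.82). CHAF1A was called with total-read scaling (0.74, adjusted p = 0.0233), without KYSE180 control 1 (0.76, adjusted p = 0.0353) and without shCDCA7 replicate 2 (0.70, adjusted p = 0.0356, beside 4.74% of all genes called higher). Without KYSE180 control 3, RFC3 (-0.81, adjusted p = 0.0211) and RPA2 (-0.52, adjusted p = 0.0227) were called instead, beside 3.82% of all genes called lower.

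In a list of 44 other replication genes (further origin, checkpoint, histone chaperone and nucleotide genes), 5 fell (11.4%) and 3 rose (6.82%) in KYSE150, beside 9.86% and 10% of all genes, with a median of -0.07. Without shCDCA7 replicate 2, 24 of the 44 were called lower and 10 of the 44 higher, beside 26.4% and 29.5% of all genes. The median was then -0.18. ASF1B, a histone chaperone that hands histones to chromatin assembly factor 1, fell by 1.23 on the log2 scale, with 13.3, 14.4 and 14.9 FPKM with shCDCA7, against 32.7, 37.0 and 33.9 FPKM in controls (adjusted p = 0.002). CDC25A, the phosphatase that activates the cyclin E kinase (-0.56), CDC7, the kinase that fires origins (-0.49), and DCTPP1, a nucleotide pyrophosphatase (-0.49), fell as well. The 3 that rose were RRM2B (0.62), CCNA2 (0.60) and DCK (0.47), which encode a p53-inducible ribonucleotide reductase subunit, cyclin A2 and deoxycytidine kinase. In KYSE180, PIF1, a DNA helicase, rose (0.63, adjusted p = 0.0363) and TIPIN, a fork protection factor, fell (-1.05, adjusted p = 0.0195), each 2.27% of the 44, beside 4.65% and 4.43% of all genes, with a median of -0.10. Without KYSE180 control 3, 9 of the 44 were called lower (20.5%) and 1 higher (2.27%), beside 7.08% and 7.93% of all genes, with a median of -0.21.

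In a list of 13 E2F and RB family genes that excludes E2F1 and E2F2, 3 fell (23.1%) and 0 rose in KYSE150, beside 9.86% and 10% of all genes. Without shCDCA7 replicate 2, 6 of the 13 were called lower and 2 of the 13 higher, beside 26.4% and 29.5% of all genes. The 3 were E2F8, an E2F repressor (-0.72, adjusted p = 0.0499), TFDP1, the dimer partner of the E2Fs (-0.63, adjusted p = 0.00641), and MYBL2 (-0.61, adjusted p = 0.0292). TFDP2, another dimer partner, rose in KYSE180 (0.55, adjusted p = 0.0381) and was the only one of the 13 called there. Without KYSE180 control 3, 4 of the 13 were called lower and 1 higher, beside 7.08% and 7.93% of all genes. Some mitosis genes rose in each line. Of 39, 8 rose (20.5%) and 0 fell in KYSE180, beside 4.65% of all genes called higher and 4.43% lower, with a median of 0.43. In KYSE150 13 rose (33.3%) and 0 fell, beside 10% of all genes called higher and 9.86% lower, with a median of 0.42. KYSE180 control 3 was low for these genes too. Relative to the control mean their median was 0.45, 0.44 and 0.45 in CDCA7 libraries 1, 2 and 3, against 0.04, 0.26 and -0.29 in controls 1, 2 and 3. Without control 3, 5 were called higher (12.8%) and 1 lower (2.56%) in KYSE180, beside 7.93% and 7.08% of all genes, with a median of 0.30. PTTG1, the separase inhibitor securin, averaged 111 ± 23.02 FPKM with CDCA7 and 49.2 ± 5.75 FPKM in KYSE180 controls (SD, n = 3 each), a rise of 1.15 (adjusted p = 0.0164). With shCDCA7 it averaged 89.8 ± 5.87 FPKM, against 45.7 ± 4.29 FPKM in KYSE150 controls, a rise of 0.96 (adjusted p = 0.00397). Without shCDCA7 replicate 2, 29 of the 39 mitosis genes were called higher and 4 of the 39 lower in KYSE150, with a median of 0.27. Of all genes, 29.5% were then called higher and 26.4% lower. What the opposite signs mean for the share of cells in each stage was not tested.

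The native lines differed in the levels of 23 of the 48 genes. Relative to native KYSE150, native KYSE180 was higher for 14 and lower for 9, and 25 did not pass, beside 33.4% of all genes called higher and 24.6% lower (58% called in all). These 48 genes gave 29.2% higher and 18.8% lower, and their median difference was -0.04 beside 0.07 over all genes tested. Without KYSE180 control 3, 19 were called higher (39.6%) and 6 lower (12.5%), beside 31.2% and 23% of all genes. The median was then 0.16 beside 0.06 over all genes, and 18 differences were negative instead of 25, so the sign of the median turned with this library. KYSE180 controls lay above every KYSE150 control for 14 genes and below for 17, against 39.4% and 31.8% of all genes. This comparison uses the controls of both lines and so shares them with the comparisons above.

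CCNE1 differed most, with 10.6, 14.2 and 7.20 FPKM in native KYSE180, against 2.31, 1.88 and 1.92 FPKM in native KYSE150, a 5.24-fold ratio of means (log2 1.90, SE 0.19, adjusted p = 5.72e-06). TK1 had 194, 196 and 137 FPKM in native KYSE180, against 68.7, 66.2 and 64.1 FPKM in native KYSE150 (1.37, adjusted p = 1.22e-05). E2F2 had 9.74, 6.83 and 6.28 FPKM in native KYSE180, against 2.46, 2.498 and 2.87 FPKM in native KYSE150 (1.24, adjusted p = 2.78e-05). In all 3 the lines were apart in every library. MCM2, a helicase subunit (0.92), and POLE2, the second subunit of polymerase epsilon (0.89), completed the 5 largest positive differences.

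GINS1 led the other direction, with 7.51, 8.53 and 4.98 FPKM in native KYSE180, against 16.7, 15.4 and 15.99 FPKM in native KYSE150 (-1.11, adjusted p = 0.000223). MCM3 had 79.3, 69.4 and 47.2 FPKM in native KYSE180, against 136, 144 and 133 FPKM in native KYSE150 (-1.10, adjusted p = 0.000137). POLA1, the catalytic subunit of polymerase alpha, had 6.80, 8.06 and 3.84 FPKM in native KYSE180, against 13.1, 13.5 and 13.8 FPKM in native KYSE150 (-1.05, adjusted p = 0.00648). Again no library of one line reached the other. PRIM1 (-0.996) and MCM10 (-0.71) followed, MCM10 without a call when KYSE180 control 3 was left out (-0.37, adjusted p = 0.0609). Subunits of 1 complex therefore differed in opposite directions, with MCM2 and MCM7 higher and MCM3 lower in native KYSE180, and GINS3 higher and GINS1 lower. E2F1, PCNA, FEN1, CDC45 and POLD2 did not pass between the native lines, with differences between -0.12 and 0.03. Without KYSE180 control 3 they lay between 0.09 and 0.30, and FEN1 was called higher (adjusted p = 0.0451).

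**Figure D4:**
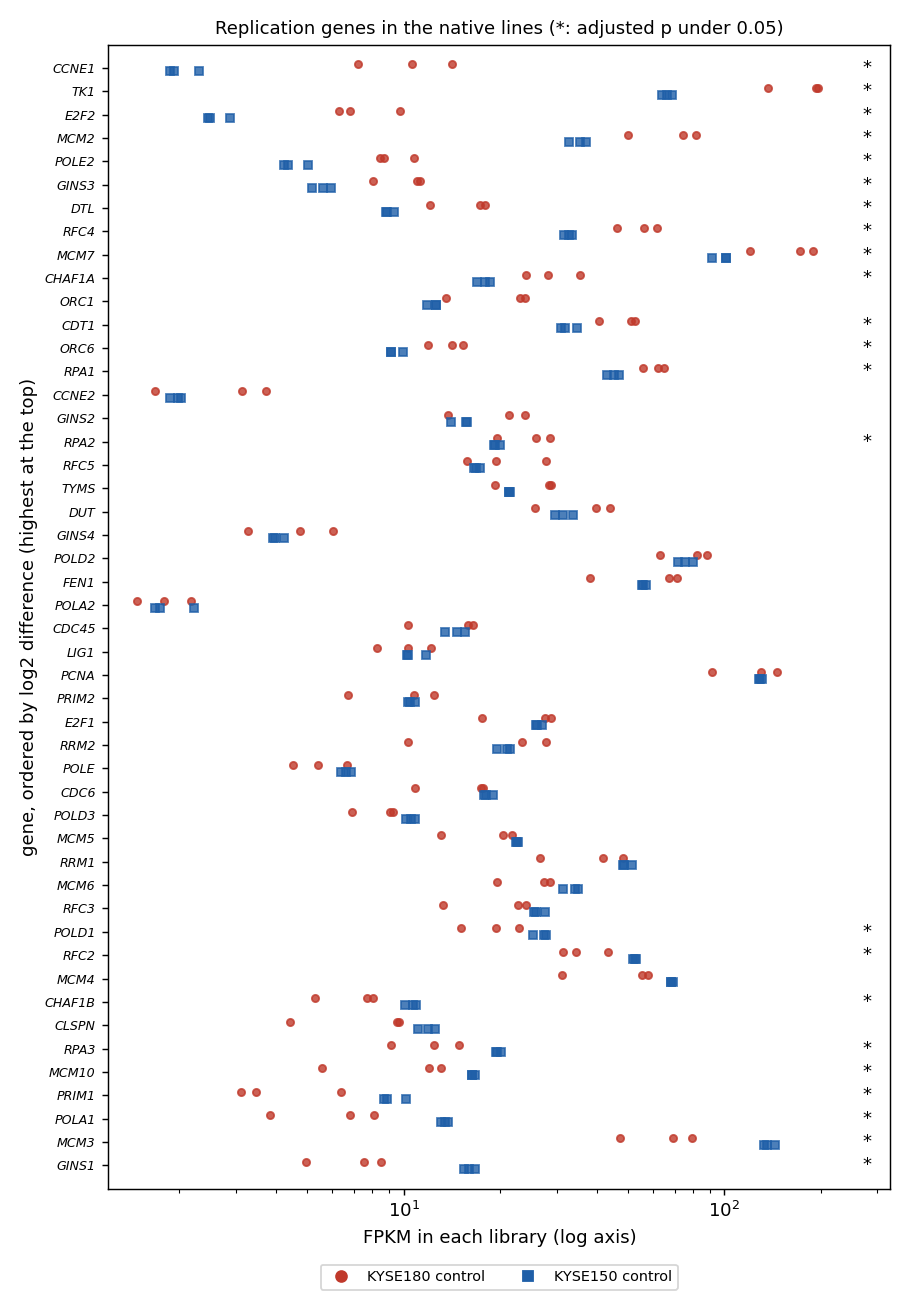
FPKM (log axis) of each of the 48 genes in the 3 native KYSE180 libraries (red circles) and the 3 native KYSE150 libraries (blue squares), ordered by log2 difference, with asterisks for an adjusted p under 0.05. CCNE1 and TK1 are at the top, GINS1 and MCM3 at the bottom, and the KYSE180 points spread more widely than the KYSE150 points.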

How the data were processed

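The labels assign 12 RNA-seq libraries to 4 groups of 3, and each column of values matched 1 label. The deposited values are FPKM, a unit inferred here: multiplied by the deposited gene length, 100% of low values become whole numbers of reads (tolerance 0.01 reads), so the reads were recovered. Per the submitters' processing notes, the authors used HISAT2 2.0.5 and DESeq2 1.20.0, with mm10, a mouse build, named as the genome. All 58735 genes nevertheless match GENCODE 29 (human GRCh38) by start and end, which supplied gene positions, exon overlaps and GC content. What counted the reads, and whether by strand, was not given in the sources used here. A gene's level is per kilobase, and the scaling assumes that most genes do not change.

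The recovered reads were used for depth, for the filter on low reads, for TMM and total-read scaling and for limma-voom. PCR duplicates carry no molecular identifiers, so depth covers counting error only. Genes needed 10 or more reads, scaled to a library of median size, in 3 or more libraries, and 15 or more reads overall. Log2(FPKM + 1) was fitted with limma-trend (limma 3.58.1, R 4.3.3, with the data.table package at 1.17.8). Each line was fitted on its 6 libraries with the group as the only term. The difference of the effects and the native comparison came from 1 fit of all 12 libraries. P-values were adjusted by Benjamini-Hochberg over all genes tested, and the threshold was 0.05, two-sided. Scripts were tested on simulated data. Alternatives were TMM and total-read scaling, other filters on low values, an added constant of 0.1, limma-voom on recovered reads, a replicate block, removal of a GC trend (lowess span 0.3), all 12 libraries in each fit, each library left out in turn, and a threshold of 0.01. Promoters are RefSeq windows of GRCh38.p14.

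The 48 genes, the lists and the tests were chosen with earlier results of these data known. Values per library are given for the 12 largest called falls and 3 largest positive differences in KYSE150, for every called gene and the 3 largest differences each way in KYSE180, and for the largest called differences between native lines. The most abundant genes of a role are named. DUT has 8 pseudogenes in GENCODE 29, PCNA, RPA2 and RRM2 have 3 each, TYMS has 2, and RFC3, RFC5, POLD2 and FEN1 have 1 each, and reads shared with such copies may be split.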

Additional observations from a re-analysis of the deposited data

How the results depend on the processing

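All 17 genes called lower in KYSE150 kept their sign under every alternative run, but 13 of them stayed called after removal of the GC trend and 11 with all 12 libraries in the fit. Of the 48 genes, 32 were called lower with total-read scaling (21% of all genes) and 9 with no filter (2.43% of all genes). With 1 library left out, 2 to 39 were called lower, beside 1.49% to 26.4% of all genes. The count called higher was then 0 to 2, beside 1.44% to 29.5% of all genes. At the 0.01 threshold 4 were called lower, and the share of all genes was not taken there. In KYSE180 the 1 gene called lower became 8 with total-read scaling (7.7% of all genes) or with all 12 libraries in the fit (8.92%). The count was 2 with 0.1 added (4.69% of all genes), 5 with limma-voom (5.56%) and 0 with no filter (0.00315%). With 1 library left out it was 0 to 20, beside 0% to 7.25% of all genes. At the 0.01 threshold it was 0, and the share of all genes was not taken there either. For the difference of the effects, 1 gene was called higher with total-read scaling, beside 3.75% of all genes. Leaving out 1 library gave 0 to 1 higher, beside 0.92% to 4.78% of all genes, and 0 to 2 lower, beside 0.666% to 5.51%. The native counts of 14 higher and 9 lower were 19 and 6 without KYSE180 control 3 and stayed within 1.5 times under all alternatives. Replicate numbers showed no sign of pairing the samples. Deviations correlated at -0.0761 to 0.0662 for same-numbered samples and at -0.0976 to 0.116 for the others. With so few libraries this check cannot exclude a pairing, and the labels do not give one. With a replicate block, 7 genes were called lower in KYSE150 and 0 in KYSE180, beside 3.6% and 1.74% of all genes. Reversed signs concerned uncalled genes. With total-read scaling these were, in KYSE180, CDT1 (-0.0083), RFC2 (-0.10), POLD2 (-0.11) and RPA1 (-0.0521), and in KYSE150 ORC6 (-0.18), RFC3 (-0.0728), RPA1 (-0.21), RPA2 (-0.0257), RPA3 (-0.16) and DTL (-0.21). DTL was -0.0072 with TMM and -0.10 without the GC trend, where RFC3 was -0.0047 and POLD2 0.13. Leaving out 1 library gave, in KYSE180, CCNE1 -0.29 to 0.16, CDT1 -0.0025 to 0.22, DUT -0.37 to 0.0092, MCM7 -0.30 to 0.0257, POLD2 -0.13 to 0.11, PRIM1 -0.35 to 0.11, RFC2 -0.075 to 0.15, RPA3 -0.0639 to 0.29, RRM1 -0.31 to 0.10 and TK1 -0.25 to 0.0058. In KYSE150 it gave DTL -0.10 to 0.12, PRIM2 -0.26 to 0.14 and RPA1 -0.16 to 0.16. The causes were not tested. Depth limits CCNE2 and POLA2 most, which had the lowest mean FPKM of the 48.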
